A study of Sus scrofa with 12 samples.

Results

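The genes described here were CBR1, CBR3 and CBR4, the carbonyl reductases that carry these symbols in the coding-gene table of the pig testis, 3 of 21674 genes. They were picked by symbol, and CBR1 was picked first because, among the genes that decreased from Ha to Hb, it had the smallest adjusted p. The values of CBR1 in Ha and Hb therefore selected it and are given as a description, with no test. The change of CBR1 from La to Lb took no part in that choice, whereas Ha vs La and Hb vs Lb each share 3 libraries with it, so that CBR1 is only described in them. All 3 members passed the filter on low counts in each comparison.

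The study sequenced testis RNA of Hezuo (HZ) boars and of Landrace (LC) boars. Ha was 30-day-old HZ boars, Hb was 120-day-old HZ boars, La was 30-day-old LC boars and Lb was 120-day-old LC boars, with 3 libraries in each group. The testes were taken by castration, so the ages are different animals, and each library holds RNA of every cell type of the testis. Ha vs Hb and La vs Lb ask what changed with age within a breed, and Ha vs La and Hb vs Lb ask how the breeds differed at one age.

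Carbonyl reductases use NADPH to reduce aldehydes, ketones and quinones to alcohols, and most belong to the short-chain dehydrogenase family. CBR1 is a cytosolic enzyme with a wide range of substrates, among them quinones, prostaglandins and steroids, and the enzyme of the pig testis was characterised as a 20-beta-hydroxysteroid dehydrogenase, which reduces the side chain of progestins. CBR3 is its close relative with fewer known substrates, and CBR4 works in mitochondria, where it forms with HSD17B8 the ketoacyl reductase of mitochondrial fatty acid synthesis.

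Total estimated counts ran from 17165519 in Hb3 to 23758931 in Ha1. Levels are given as the FPKM deposited by the authors, which are scaled by transcript length and by mapped fragments. Fold changes are log2 values of the second group over the first from edgeR's quasi-likelihood test on counts scaled by TMM, with their standard error (SE), and calls needed both an adjusted p (Benjamini-Hochberg) below 0.05 and a change of more than 1 on the log2 scale in either direction. Exact permutation of 3 libraries against 3 cannot reach a p below 0.1, so every adjusted p rests on the spread that edgeR models across genes.

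Library Hb1 stood apart from Hb2 and Hb3 in its Leydig cell markers. The 7 Leydig cell markers summed to 2180.4 FPKM in Hb1, 189 in Hb2 and 128 in Hb3. In the other groups their sum was 5487, 5009 and 4883 in Ha, 7771, 5341 and 6281 in La, and 2708, 4057 and 1712 in Lb. The sum of Hb1 was within the range of Lb through INSL3, at 1549 FPKM, and without INSL3 it was 631, beside 955 to 1703 in Lb, 106 in Hb2 and 101 in Hb3. Of the 7 markers, INSL3, STAR and HSD3B1 were within the range of Lb in Hb1, and CYP17A1, CYP11A1, LHCGR and HSD17B3 were below all of Lb. HSD3B1 and HSD17B3 were no higher in Hb1 than in Hb3. Of 17332 genes, 38 were more than 10-fold higher in Hb1 than in both other Hb libraries, among them STAR, CYP17A1 and INSL3 of the Leydig list, the carbonyl reductase gene DHRS4 and the CBR1-like gene LOC110256483. Between 5 and 39 genes were that far above both others in the other 11 libraries, with 34 in Hb2 and 30 in Hb3. Over all genes with at least 20 counts in a pair, Hb1 was not the most distant library. Chi-square per degree of freedom was 95.0 for Hb1 and Hb2, 59.7 for Hb2 and Hb3 and 41.7 for Hb1 and Hb3. Results that use Hb are given with and without Hb1 where its removal changed a call or a direction. Hb1 was set apart by the Leydig genes, DHRS4 and LOC110256483. Calls made without it, of these genes or of lists that hold them, are therefore a description and not a test, and rest on Hb2 and Hb3 alone for Hb.

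CBR1 (NCBI gene 397143) lies on chromosome 13 of Sscrofa11.1, from 199617406 to 199622407. In Ha it was at 391, 445 and 569 FPKM, and in Hb at 0.32, 0.43 and 0.33. In La it was at 444, 366 and 404 FPKM, and in Lb at 4.92, 6.99 and 5.29. CBR1 was thus among the abundant RNAs of all 6 testes of 30 days and low in all 6 of 120 days, and the lowest 30-day library was above the highest 120-day library in both breeds. The levels in Hb rest on estimated counts that round to 12, 18 and 10. Their 95% Poisson intervals were 6.20 to 21.0, 10.7 to 28.4 and 4.80 to 18.4. These treat the rounded estimates as read counts and cover counting error only. In Lb the counts were 201, 282 and 175.

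**Figure D1:**
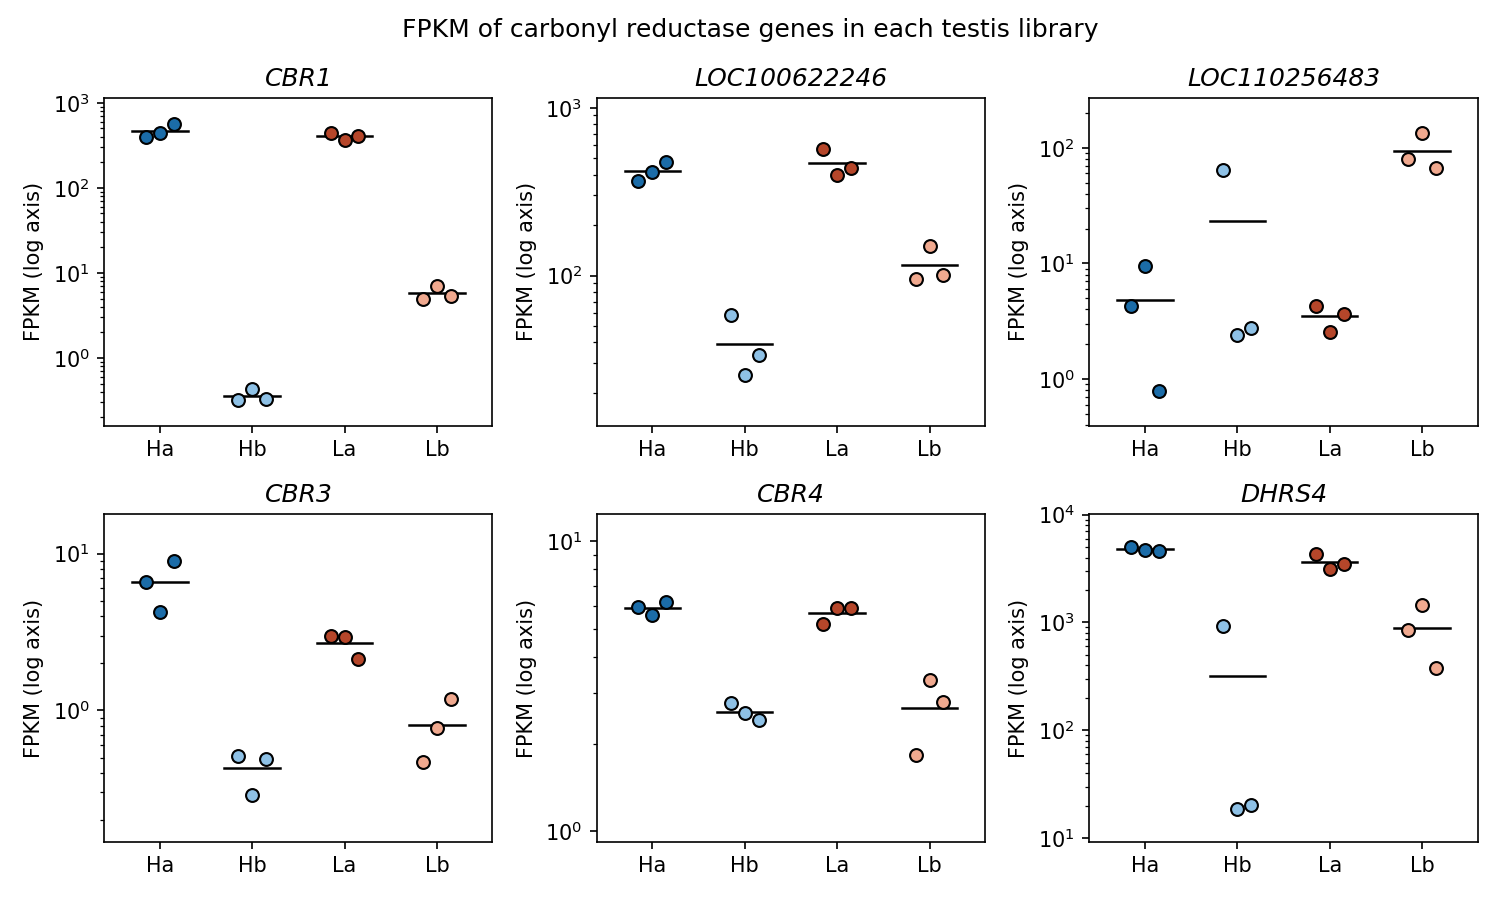
FPKM on a log axis for 6 carbonyl reductase genes in Ha, Hb, La and Lb, with 1 point per library and a line at the mean of 3 libraries. CBR1 lies between 366 and 569 in Ha and La, between 4.92 and 6.99 in Lb and between 0.32 and 0.43 in Hb, and the Hb libraries of DHRS4 and LOC110256483 include 1 that is far above the other pair.

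The group means of CBR1 were 468 ± 91.4 FPKM in Ha, 405 ± 38.8 in La, 5.73 ± 1.10 in Lb and 0.36 ± 0.061 in Hb (SD, n = 3). Ha and La, the upper neighbours in this order, overlapped, and Lb was above Hb in every library, which is not given a test because the Ha and Hb values took part in the choice of CBR1. From La to Lb CBR1 fell, with a log2 fold change of −5.82 (SE 0.19, edgeR adjusted p = 8.73e-08), that is 56.6-fold, in a comparison in which 47.6% of 16637 tested genes were called and 20.1% were called lower. In Hb vs Lb 3.85% of 16311 genes were called, 2.65% higher and 1.2% lower, and in Ha vs La 7.62% of 15648 were called, 3.6% higher and 4.01% lower. In a bulk tissue these levels are shares of the RNA. Fewer cells of a type, less RNA per cell and a larger share of RNA from other cells cannot be told apart.

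CBR1 is 1 of 5 coding genes that the reference names carbonyl reductase 1, which stand in a row between SETD4 and CBR3. LOC100622246 (199600768 to 199606618) ends 10787 bases before CBR1, and LOC110256480 (199653760 to 199659199), LOC110256481 (199665279 to 199673271) and LOC110256483 (199713741 to 199719535) follow it. From the start of the first to the end of the last these genes span 118768 bases, and 4 pseudogenes lie between CBR1 and CBR3. Estimated counts of CBR1 and LOC110256483 were not whole in all 12 libraries and those of LOC100622246 in 5, whereas CBR3 and CBR4 had whole counts in all 12. How reads were divided among such similar copies was not tested, so the level of each copy is uncertain.

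**Figure D2:**
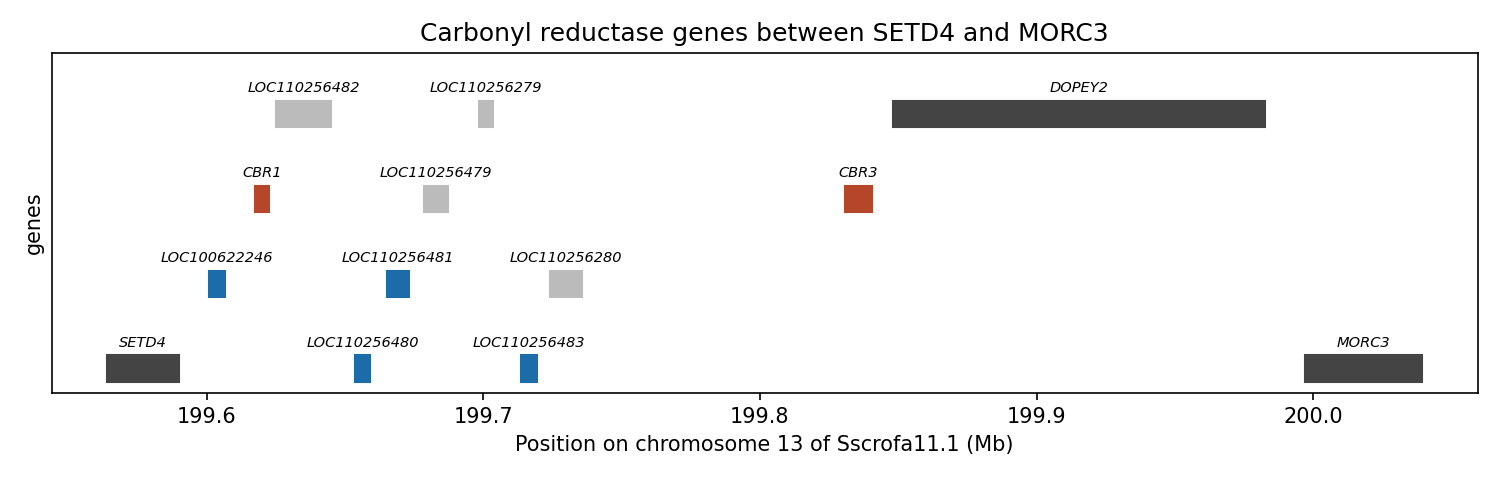
Genes from SETD4 to MORC3 on chromosome 13 of Sscrofa11.1, drawn to scale along the horizontal axis in Mb, with height used only to separate the names. CBR1 and CBR3 are red, the other genes named carbonyl reductase 1 are blue, pseudogenes without a row in the table are grey and the remaining coding genes are black, and CBR3 begins at 199830690.

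LOC100622246, for which RefSeq gives CBR3 as a synonym although its description is carbonyl reductase 1, was as abundant as CBR1 in the young testis. It was at 368, 416 and 478 FPKM in Ha, 58.6, 25.5 and 33.4 in Hb, 571, 395 and 435 in La, and 95.7, 150.5 and 101 in Lb. All 120-day libraries were below all 30-day libraries, but far less so than for CBR1. It was called lower in HZ boars with age (log2 fold change −2.90, SE 0.36, edgeR adjusted p = 0.000325) and also in La vs Lb (−1.70, SE 0.22, edgeR adjusted p = 0.000191). Between the older groups, Hb vs Lb, its log2 fold change was 1.43 (edgeR adjusted p = 0.0555), and it was called without Hb1 at 1.88 (edgeR adjusted p = 0.0181). DESeq2 and limma also called it, as did the fit of all 12 libraries and the stricter filter on counts.

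The ratio of LOC100622246 to CBR1 in FPKM was between 0.84 and 0.94 in Ha and between 1.08 and 1.29 in La. It was 183, 59.3 and 101 in the Hb libraries and 19.4, 21.5 and 19.0 in Lb. In the deposited FPKM, CBR1 thus went from about the level of its neighbour at 30 days to a small part of it in each of the 6 older libraries. How the division of reads between the copies bears on this ratio was not tested.

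LOC110256483 went the other way in LC boars. It was at 4.27, 2.54 and 3.66 FPKM in La and at 79.8, 135 and 67.5 in Lb, and the groups did not overlap. The log2 fold change of 5.07 was called (SE 0.34, edgeR adjusted p = 3.86e-06). In HZ boars it was at 4.29, 9.51 and 0.79 FPKM in Ha and at 64.6, 2.42 and 2.77 in Hb, where Hb1 was above all of Ha and Hb2 and Hb3 were within its range. The log2 fold change of 2.85 in Ha vs Hb was not called (SE 1.44, edgeR adjusted p = 0.113) and became −0.45 without Hb1 (edgeR adjusted p = 0.665), although the fit of all 12 libraries called it at 2.84 (edgeR adjusted p = 0.0432). In Hb vs Lb it was 1.86 (edgeR adjusted p = 0.345), and without Hb1 it was called at 5.10 (edgeR adjusted p = 0.00222). The interaction of breed and age did not pass the test for LOC110256483 (2.22, edgeR adjusted p = 0.421) or for LOC100622246 (1.19, edgeR adjusted p = 0.126), in a fit that called 5.14% of 17332 genes.

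Together the 5 genes named carbonyl reductase 1 held 894 ± 144 FPKM in Ha, 62.8 ± 52.7 in Hb, 875 ± 131 in La and 215 ± 66.9 in Lb (SD, n = 3). The sum in Hb was 124 in Hb1, 28.4 in Hb2 and 36.6 in Hb3, so Hb1 raised its mean. CBR1 made up 51.2%, 51.1% and 54.3% of this sum in Ha and 43.5%, 47.9% and 47.9% in La. Its share was 0.26%, 1.52% and 0.90% in Hb and 2.73%, 2.39% and 3.05% in Lb. LOC110256483 held at most 1.09% of the sum in any 30-day library, and 44.2%, 46.1% and 38.9% in Lb and 52.3% in Hb1, with 8.53% and 7.58% in Hb2 and Hb3. With the counts of the 5 genes added into 1 row, an alternative chosen after the data were seen, the sum had a log2 fold change of −1.43 in La vs Lb (edgeR adjusted p = 0.000743).

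LOC110256480 and LOC110256481 stayed at or below 0.28 FPKM in all libraries and were not tested. CBR2, a mitochondrial relative in a separate branch of the family, stayed at or below 0.14 FPKM and was not tested either. On the side of LOC100622246, SETD4, a lysine methyltransferase, was at 6.38 to 8.07 FPKM in Ha, 4.71 to 5.38 in Hb, 3.07 to 6.24 in La and 1.90 to 2.56 in Lb. SETD4 was called lower only in Hb vs Lb (log2 fold change −1.19, edgeR adjusted p = 0.0242). RUNX1, a transcription factor 981757 bases from CBR1, was at most 1.22 FPKM and was called lower with age in HZ (−1.94, edgeR adjusted p = 0.00919) and LC boars (−1.50, edgeR adjusted p = 0.0110).

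CBR3 (NCBI gene 100512990, chromosome 13, 199830690 to 199840444) was about 2 orders of magnitude below CBR1 in the young testis. It was at 6.60, 4.26 and 8.90 FPKM in Ha and at 0.51, 0.29 and 0.49 in Hb. In LC boars it was at 2.96, 2.93 and 2.12 FPKM in La and at 0.47, 0.77 and 1.18 in Lb. The 30-day libraries were above the 120-day libraries in both breeds, Ha was above La in every library, and Hb and Lb overlapped. The counts behind these values were 129 to 281 in Ha, 66 to 88 in La, 16 to 33 in Lb and 10 to 16 in Hb.

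CBR3 was called lower with age in both breeds. In Ha vs Hb, where 51.4% of 16548 genes were called, 23.2% lower and 28.2% higher, its log2 fold change was −3.43 (SE 0.44, edgeR adjusted p = 0.000349). In La vs Lb, where 27.5% of genes were called higher, it was −1.43 (SE 0.38, edgeR adjusted p = 0.00865). The interaction was 1.98 (SE 0.57, edgeR adjusted p = 0.0570) and missed the threshold, but was past it with DESeq2 (1.94, adjusted p = 0.0208), both limma settings, upper-quartile scaling and without Lb1 (2.24, edgeR adjusted p = 0.0467).

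At 30 days CBR3 was lower in LC boars, with a log2 fold change of −1.27 (SE 0.30, edgeR adjusted p = 0.0213). This call was lost without Ha1 (−1.27, edgeR adjusted p = 0.0593), La1 (−1.34, 0.0552), La2 (−1.33, 0.0604) or La3 (−1.11, 0.0852), and without Ha3 the change was −0.997, just under the fold threshold (edgeR adjusted p = 0.0409). Without Ha2 it was kept. The call was also lost with all 12 libraries in 1 fit and with replicate number as a block. At 120 days the difference was 0.76 (SE 0.51, edgeR adjusted p = 0.374).

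CBR4 (NCBI gene 100153608) lies on chromosome 14, from 20621960 to 20642351. It was at 5.92, 5.58 and 6.20 FPKM in Ha, 2.78, 2.56 and 2.42 in Hb, 5.17, 5.91 and 5.89 in La, and 1.84, 3.33 and 2.79 in Lb. The ages did not overlap in either breed, and the breeds overlapped at both ages. Its log2 fold change was −0.70 in Ha vs Hb (SE 0.18, edgeR adjusted p = 0.00946) and −0.78 in La vs Lb (SE 0.23, edgeR adjusted p = 0.0150), below the fold threshold in both.

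CBR4 did not differ by the test in Ha vs La (−0.03, edgeR adjusted p = 0.871), in Hb vs Lb (−0.08, edgeR adjusted p = 0.872) or in the interaction (−0.10, edgeR adjusted p = 0.876). The sign of these 3 values turned when single libraries were left out, to 0.04 without La1 for Ha vs La, and without Lb1 to 0.11 for Hb vs Lb and 0.10 for the interaction. Leaving out Ha3 in Ha vs La, or Hb1 in Hb vs Lb and the interaction, turned them too, to 0.000442, 0.00346 and 0.04. How large the age change of CBR4 appears depends on scaling. With upper-quartile scaling the median gene moved relative to TMM by −0.32 in HZ boars with age and by −0.26 in LC boars, and CBR4 passed the fold threshold at −1.02 and −1.04 (edgeR adjusted p = 0.00110 and 0.00383). Relative to the median gene of each scaling, CBR4 was at −0.68 with both in Ha vs Hb and at −0.79 with both in La vs Lb. Without Lb2 it was also called in La vs Lb (−1.02, edgeR adjusted p = 0.00371).

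The other enzymes of mitochondrial fatty acid synthesis and of lipoate, its best known product, were taken as a list of 8 genes. Of the 8, 2 were called lower and 1 higher in Ha vs Hb, with a median log2 fold change of −0.13 beside −0.02 over all genes, and in La vs Lb 1 of 7 tested was called lower, with a median of 0.15 beside 0.01. The called shares were 37.5% and 14.3%, beside 51.4% and 47.6% of all genes. Without Hb1, 1 was called lower and 2 higher in Ha vs Hb, beside 22.0% and 27.0% of all genes in that fit. HSD17B8, the partner of CBR4, was at 52.5 to 59.5 FPKM in Ha, 23.3 to 31.5 in Hb, 38.1 to 43.7 in La and 27.9 to 31.9 in Lb. Its log2 fold change was −0.45 in Ha vs Hb (edgeR adjusted p = 0.0361) and −0.10 in La vs Lb (edgeR adjusted p = 0.502). OXSM, the ketoacyl synthase, fell in Ha vs Hb (−1.70, edgeR adjusted p = 0.000452) and was at −0.98 in La vs Lb (edgeR adjusted p = 0.000575).

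MECR, the enoyl reductase of the last step, rose in HZ boars. It was at 18.6, 21.1 and 15.1 FPKM in Ha and at 26.6, 41.8 and 44.7 in Hb, a log2 fold change of 1.27 (SE 0.17, edgeR adjusted p = 0.000486). In La it was at 13.7, 16.3 and 12.5 FPKM and in Lb at 13.9, 14.7 and 12.8, and these overlapped (0.15, edgeR adjusted p = 0.404). With upper-quartile scaling the change in HZ boars was 0.95, under the fold threshold. MECR was called lower in Hb vs Lb (−1.30, SE 0.18, edgeR adjusted p = 0.0150), a call lost without Hb3, Lb1, Lb2 or Lb3 (−1.16, −1.34, −1.33 and −1.23). LIPT2, an octanoyl transferase, was called lower in Ha vs Hb (−1.05, edgeR adjusted p = 0.0221), not without Ha1, Ha3, Hb1 or Hb2 (−1.06, −0.96, −0.99 and −0.94), and in La vs Lb (−1.59, edgeR adjusted p = 0.000923). MCAT, NDUFAB1, LIPT1 and LIAS were not called in any comparison, except LIAS in Ha vs Hb without Hb1, just past the fold threshold (edgeR adjusted p = 0.00328).

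Other carbonyl reductases of the short-chain family were taken as a list of 38 genes, of which 35 were matched by symbol. In Ha vs Hb 10 of 31 tested were called lower and 2 higher, and in La vs Lb 7 of 31 were called lower and 3 higher, which is 38.7% and 32.3% of those tested, beside 51.4% and 47.6% of all genes. The medians of the list were −0.44 and −0.48 on the log2 scale, beside −0.02 and 0.01 over all genes. In Ha vs La 1 of 32 was called lower and 1 higher, beside 4.01% and 3.6% of all genes. Without Hb1, 13 of 32 were called lower and 3 higher in Ha vs Hb, beside 22.0% and 27.0% of all genes in that fit. At 120 days 1 of 29 was called in Hb vs Lb, beside 3.85% of all genes, and without Hb1 7 of 30 were, all higher, beside 2.85% of all genes called higher.

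DHRS4, a peroxisomal carbonyl and retinal reductase, had the highest mean of the list in each group, in Hb only through Hb1. In Hb2 and Hb3 other genes of the list were above DHRS4, among them DHRS1 (85.2 and 90.5 FPKM) and SPR (79.4 and 100.4 FPKM). DHRS4 was at 5039.5, 4742 and 4552 FPKM in Ha, 927, 18.4 and 20.2 in Hb, 4326, 3147 and 3459.7 in La, and 852, 1446 and 381 in Lb. All older libraries were below the younger ones, and Hb1 was within the range of Lb. DHRS4 was called lower in La vs Lb (−1.69, SE 0.43, edgeR adjusted p = 0.00716), but not in the fit of all 12 libraries (−1.70, edgeR adjusted p = 0.206). It was not called in Ha vs Hb (−3.30, edgeR adjusted p = 0.0810), and without Hb1 it was (−7.50, edgeR adjusted p = 5.97e-06). Its value in Hb vs Lb went from 1.32 (edgeR adjusted p = 0.572) to a called 5.46 without Hb1 (edgeR adjusted p = 0.00979).

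RDH11, a retinal reductase, was called lower in Ha vs Hb (−1.85, edgeR adjusted p = 0.00445) and in La vs Lb (−1.59, edgeR adjusted p = 0.000136). SPR, which makes tetrahydrobiopterin, and DHRS1 were the genes of the list called higher with age in both breeds. DHRS1 was at 31.4, 31.7 and 33.2 FPKM in Ha and at 114, 85.2 and 90.5 in Hb, with a log2 fold change of 2.09 (edgeR adjusted p = 6.10e-05), and at 2.03 in La vs Lb (edgeR adjusted p = 8.51e-06). SPR was at 1.62 in Ha vs Hb (edgeR adjusted p = 0.000126) and at 1.25 in La vs Lb (edgeR adjusted p = 4.55e-05), although upper-quartile scaling put the latter at 0.99.

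HSD11B2, which inactivates cortisol, was the only gene of this list called in Hb vs Lb. It was at 3.50, 1.43 and 0.94 FPKM in Hb and at 16.6, 45.2 and 26.1 in Lb, with a log2 fold change of 3.76 (SE 0.58, edgeR adjusted p = 0.0182). It lost the call without Hb3, Lb2 or Lb3, where the log2 fold change was 3.44, 3.28 and 3.87.

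Aldo-keto reductases, a family of another fold that reduces many of the same substrates, were taken as 15 genes, of which 10 were matched and tested. Of these, 3 were called lower and 3 higher in Ha vs Hb, while La vs Lb had 4 lower and 2 higher, and without Hb1 Ha vs Hb had 4 lower and 3 higher. Of all genes 51.4% and 47.6% were called in these comparisons with every library. In the fit without Hb1, 22.0% of all genes were called lower and 27.0% higher in Ha vs Hb. AKR1C1, of a subfamily of hydroxysteroid dehydrogenases, was at 261, 107 and 396 FPKM in Ha and at or below 1.41 in every other library. It was called lower in Ha vs La (−7.90, SE 0.58, edgeR adjusted p = 0.000350) and in Ha vs Hb (−9.53, edgeR adjusted p = 9.33e-05). AKR1B1, the aldose reductase, was at 52.0, 44.7 and 49.7 FPKM in La and at 173, 195 and 196 in Lb (2.28, edgeR adjusted p = 4.56e-07). It was also called higher in Ha vs Hb (1.08, edgeR adjusted p = 0.00633). That call was lost in 3 of 6 fits without single libraries, among them the fit without Hb1 (0.95, under the fold threshold).

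The list of Leydig steroid synthesis held 16 genes, of which 15 were matched and 14 tested. In Ha vs Hb 10 were called lower and none higher, with a median log2 fold change of −2.31, and in La vs Lb 10 were called lower and none higher, with a median of −1.41. The share called lower was 71.4% in each, beside 23.2% and 20.1% of all genes. CBR1 is known from this pathway in the pig, and its log2 fold change in La vs Lb was −5.82, beside −2.96 for STAR, which brings cholesterol into mitochondria (edgeR adjusted p = 0.000498), and −1.19 for CYP17A1, which makes androgens from progestins (edgeR adjusted p = 0.00340, and −0.98 without Lb3, under the fold threshold). CYP17A1 was at 1762, 1708 and 1717 FPKM in Ha, 468, 7.92 and 6.63 in Hb, 3116, 2123 and 2591 in La, and 786, 1276 and 690 in Lb, so Hb1 was far above Hb2 and Hb3. INSL3, a peptide hormone of Leydig cells, was the most abundant gene of the list in the mean of 12 libraries, although CYP17A1 had the higher mean in Ha and La. INSL3 was at 1549, 83.7 and 27.5 FPKM in Hb. None of the 14 was called in Hb vs Lb, and without Hb1 8 were called higher there and 12 lower in Ha vs Hb, beside 2.85% and 22.0% of all genes in these fits. Genes of this list were among those that set Hb1 apart, so the counts without Hb1 are a description and not a test.

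**Figure D3:**
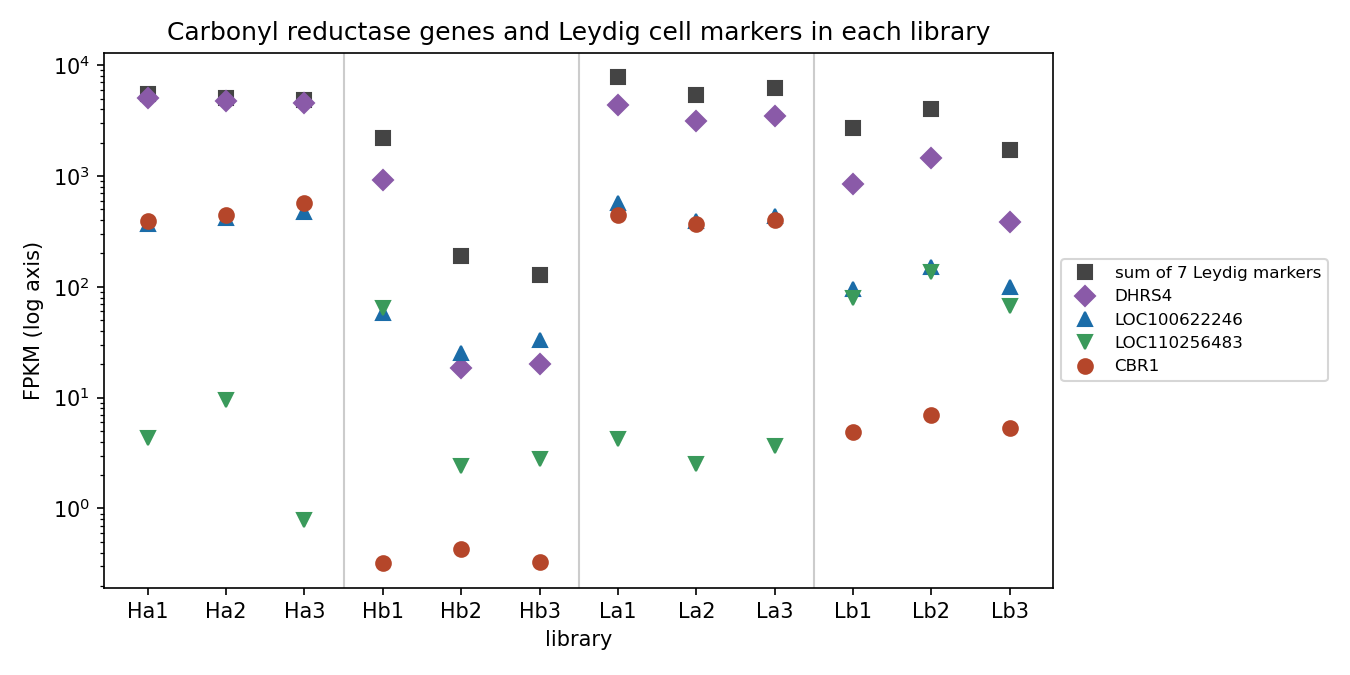
FPKM on a log axis in each of the 12 libraries for the sum of 7 Leydig cell markers, DHRS4, LOC100622246, LOC110256483 and CBR1. In Hb1 the marker sum was 2180.4, DHRS4 927 and LOC110256483 64.6, each far above Hb2 and Hb3, and the Ha and Hb values of CBR1 are those by which it was chosen.

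Prostaglandin E is a known substrate of CBR1, and genes that make, carry, sense or degrade prostaglandins were taken as a list of 19. In Ha vs Hb 6 of 18 tested were called lower and 5 higher. Without Hb1 6 were called lower and 3 higher, beside 22.0% and 27.0% of all genes in that fit. In La vs Lb 6 of 17 were called lower and 3 higher. The called shares were 61.1% and 52.9%, beside 51.4% and 47.6% of all genes. PTGDS, the prostaglandin D synthase, was at 52.6, 36.3 and 32.9 FPKM in Ha, 162, 576 and 239 in Hb, 32.6, 34.6 and 38.4 in La, and 218, 153 and 293 in Lb, and rose with age in HZ (3.45, edgeR adjusted p = 0.000372) and LC boars (2.95, edgeR adjusted p = 4.86e-06). PTGES, an enzyme that makes prostaglandin E, fell in Ha vs Hb (−1.99, edgeR adjusted p = 0.00557) and was at 0.56 in La vs Lb (edgeR adjusted p = 0.127). PTGER4, a receptor of prostaglandin E, fell in both breeds (−1.60 in Ha vs Hb, edgeR adjusted p = 0.00658, and −2.45 in La vs Lb, edgeR adjusted p = 0.000106). PTGES3 was not called in any comparison.

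NRF2, encoded by NFE2L2, is a transcription factor known to raise carbonyl reductases and other enzymes that handle quinones and oxidants. Of 17 genes of NRF2 and its common targets, 9 were called lower and 2 higher in Ha vs Hb, and 5 lower and 2 higher in La vs Lb, with medians of −1.001 and −0.67. These are 64.7% and 41.2% of the list, beside 51.4% and 47.6% of all genes. NQO1, the quinone reductase, was at 267, 189 and 265 FPKM in Ha, 28.3, 8.60 and 5.89 in Hb, 127, 78.9 and 104 in La, and 47.7, 86.2 and 58.4 in Lb. It fell in Ha vs Hb (−3.53, SE 0.63, edgeR adjusted p = 0.00183) and was at −0.37 in La vs Lb (edgeR adjusted p = 0.208). ME1, a source of NADPH, fell in both breeds (−3.99, edgeR adjusted p = 0.00136, and −2.40, edgeR adjusted p = 1.39e-05). None of the 17 was called in Hb vs Lb, and without Hb1 5 were called higher there, and 9 lower and 1 higher in Ha vs Hb, beside 2.85%, 22.0% and 27.0% of all genes in these fits.

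Markers of testis cell types moved with age beside all these genes, and their part in the changes of the carbonyl reductases was not tested. The 10 spermatid markers, with PRM1 the most abundant in each group, summed to 6.49 ± 0.68 FPKM in Ha, 6247 ± 1256 in Hb, 8.22 ± 3.27 in La and 3609 ± 285 in Lb (SD, n = 3), and 9 of 9 tested were called higher with age in each breed, beside 28.2% and 27.5% of all genes. The 8 spermatocyte markers, led by PIWIL1 except in La, where MEIOB was higher, summed to 9.32 ± 2.45, 147 ± 11.8, 4.86 ± 0.50 and 117 ± 6.84 FPKM in the same order. The 11 spermatogonial markers, led by DDX4 at 120 days, by DAZL in Ha and by ZBTB16 in La, summed to 69.6 ± 8.88, 177 ± 4.67, 41.9 ± 1.73 and 152 ± 11.4 FPKM. In HZ boars the higher spermatogonial sum of the older testes was that of DDX4, and without DDX4 the sum was 62.5 in Ha and 38.4 in Hb. In LC boars the sum without DDX4 was still higher at 120 days, at 37.2, 36.6 and 38.7 in La and 45.5, 43.0 and 46.5 in Lb. Of the 11 spermatogonial genes 6 were called lower and 3 higher in Ha vs Hb (4 and 3 without Hb1), and 5 lower and 4 higher in La vs Lb, beside 51.4% and 47.6% of all genes called in either direction. The fit without Hb1 called 22.0% of all genes lower and 27.0% higher in Ha vs Hb.

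The summed markers of each somatic cell type were lower in the older testes, though not every gene was. These sums are shares of the RNA and not cell numbers, and the paper reports that Sertoli cells in its sections increased in number with age. The 8 Sertoli cell markers, led by INHA at 30 days and by CLDN11 at 120 days, summed to 835 ± 121 FPKM in Ha, 228 ± 54.8 in Hb, 1637 ± 131 in La and 355 ± 39.3 in Lb (SD, n = 3). The 10 peritubular and stromal markers, led by COL3A1 except in Hb, where ACTA2 was higher, summed to 968 ± 16.0, 89.6 ± 20.05, 1359 ± 145 and 536 ± 23.8 FPKM in the same order. Among them ACTA2 of smooth muscle-like cells was at 71.6, 63.1 and 78.3 FPKM in La and at 128, 129 and 207 in Lb and was called higher there (1.42, edgeR adjusted p = 0.000144), while 5 of the 10 were called lower, beside 20.1% of all genes. The 5 endothelial markers, led by VWF, summed to 90.9 ± 5.66, 18.8 ± 6.91, 89.1 ± 9.98 and 34.2 ± 9.99 FPKM, and the 5 macrophage markers, led by CSF1R except in Ha, where CD163 was higher, to 35.2 ± 4.40, 3.43 ± 1.16, 35.9 ± 2.67 and 8.49 ± 2.24 FPKM. Of the 3 adrenal-like markers 2 were matched, which summed to 16.7 ± 4.73, 1.82 ± 1.23, 24.6 ± 1.52 and 4.74 ± 1.56 FPKM, nearly all of it MRAP, while MC2R was at or below 0.11. The Leydig sum was 5126 ± 319 in Ha, 833 ± 1168 in Hb, 6464 ± 1226 in La and 2826 ± 1177 in Lb, beside 405 and 5.73 FPKM for the mean of CBR1 in La and Lb.

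Genes whose pattern over the 12 libraries was most like that of each member were found by the root mean square difference of centred log2 CPM, among 16641 genes with a symbol. They are given as a description, since CBR1 was chosen by this pattern. For CBR1 they were PRSS35 at 1.34, DDT, a tautomerase, at 1.37, NXNL2 at 1.39, CHGA, a protein of secretory granules, at 1.40 and HSD17B2, which oxidises estradiol and testosterone, at 1.41. HSD17B2 was at 54.0, 34.2 and 37.1 FPKM in Ha, 25.1, 17.5 and 17.5 in La, and at or below 0.08 in all 6 older libraries. DDT was listed at 0 in 5 of the older libraries and at 3.67 FPKM in Lb2. For CBR3 the nearest were LOC100621260, CD300LF and RPP25 at 0.44 each, and for CBR4 they were ADAM19 and EIF4E2 at 0.14 each and SHC1 at 0.15.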

How the data were processed

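The estimated counts of coding genes were deposited by the authors after adapter trimming with fastp 0.18.0, removal of rRNA reads with Bowtie2 2.2.8, alignment with HISAT2 2.1.0 and assembly with StringTie 1.3.4, and the tool that counted was not named. The FPKM values were made by the authors with StringTie and are used as deposited, with no further scaling. Between 29.4% and 33.6% of the estimated counts of a library were not whole, and they were rounded. Genes were matched by symbol, and the members and lists were chosen with earlier results of these data known.

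Counts were filtered with filterByExpr (minimum count 10), scaled by TMM over the libraries of each comparison and tested with the quasi-likelihood F test of edgeR 4.0.16 in R 4.3.3. SE is the log2 fold change divided by the root of F. The interaction is the change in LC minus the change in HZ boars, from 1 fit of 12 libraries. TMM factors ran from 0.834 in Hb1 to 1.10 in Ha2. Alternatives were DESeq2 1.42.0, limma 3.58.1 on log2 FPKM with 1 or 0.1 added, no filter, a stricter filter, upper-quartile scaling, 1 fit of all libraries, replicate number as a block, each library left out, and the counts of the 5 genes named carbonyl reductase 1 added, which was chosen after seeing the data. Python 3.11.15, pandas 2.3.3 and matplotlib 3.10.9 drew the figures.

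Scaling moved every fold change with age. Of the genes called in Ha vs Hb 54.8% were higher with TMM, 56.8% with DESeq2 and its size factors, 43.7% with upper-quartile scaling and 38.5% on FPKM. The values with DESeq2 and on FPKM, which were fitted with limma, differ in the test as well as in the scaling. In the same order the shares in La vs Lb were 57.7%, 59.2%, 47.1% and 46.1%, and for Hb vs Lb they were 68.8%, 65.8%, 69.1% and 80.0%.

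With 3 animals per group small changes could be missed, and each age is a different set of animals. The copies of carbonyl reductase 1 share sequence, and how reads were divided among them was not tested. Protein, enzyme activity, steroids and single cells were not measured in these libraries. Cell number, RNA per cell and the share of RNA from other cells therefore cannot be told apart.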

Additional observations from a re-analysis of the deposited data

Results flagged for a closer look

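The interaction of breed and age, the log2 change with age in LC minus that in HZ boars, was called by edgeR for 9 of the 41 genes named from the lists, beside 5.14% of 17332 genes in the same fit. The 41 genes were named for high mean FPKM or as the most abundant marker, and the mitochondrial list was named whole. Others were named for a list's largest change in La vs Lb or Hb vs Lb. Those comparisons share libraries with the interaction, so the 9 of 41 is a description and not a test against all genes. CBR3, CBR4, LOC100622246 and LOC110256483 were not called, and CBR1 was given no test.

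HSD11B2 was at 4.06 (SE 0.69, edgeR adjusted p = 0.00914) and kept its call without any 1 of the 12 libraries. It was named for the largest increase of its list in Hb vs Lb, and AKR1C1 and AKR1B1 for their changes in La vs Lb as well as their level. The adjusted p of these genes is given as a description. AKR1C1 was at 7.07 (SE 1.41, edgeR adjusted p = 0.0162), and without Lb2 it was 6.76 (edgeR adjusted p = 0.0754). AKR7A2 was at 1.02 (SE 0.20, edgeR adjusted p = 0.0159), and it fell under the fold threshold without Ha1, Lb2 or Lb3 (0.995, 0.92 and 0.98). AKR1B1 was at 1.19 (SE 0.28, edgeR adjusted p = 0.0306) and lost its call without any of Ha1, Ha2, Hb2, La1, La2, La3, Lb1 or Lb2.

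MECR was at −1.13 (SE 0.24, edgeR adjusted p = 0.0193), and its call was lost without Ha1, Hb3 or La2 (−1.11, −0.96 and −0.96). PTGES was at 2.53 (SE 0.60, edgeR adjusted p = 0.0294) and NQO1 at 3.15 (SE 0.71, edgeR adjusted p = 0.0247). PTGES lost its call without Ha1, La2, La3, Lb1 or Lb2, and NQO1 without Ha1, La2, La3 or Lb2.

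Among cell type markers, PRM1 of spermatids was at −1.83 (SE 0.44, edgeR adjusted p = 0.0322) and COL3A1 of stromal cells at 3.19 (SE 0.79, edgeR adjusted p = 0.0352). PRM1 kept its call only without Hb1, Hb2 or La3, and COL3A1 only without Ha3, Hb1, Hb2 or Hb3.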

How the results depend on the processing

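CBR1 in La vs Lb and CBR3 in both changes with age were called lower under every alternative that kept the gene as its own row, CBR1 between −6.13 and −5.73 and CBR3 between −3.76 and −2.36 in HZ and between −1.75 and −1.03 in LC boars.

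CBR1 in Ha vs Hb was −8.41 with limma on FPKM + 1 and −10.15 with upper-quartile scaling, and the 5 copies summed into 1 row gave −3.06, a value of the sum and not of CBR1. The sum was at −1.43 in La vs Lb and at 1.68 in Hb vs Lb, where LOC100622246 and LOC110256483 held most of it at 120 days. Both values with Hb include Hb1, where the sum was 327 CPM beside 53.0 in Hb2 and 74.1 in Hb3, and the sum was not fitted without Hb1.

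CBR4 passed the fold threshold with limma on FPKM + 0.1 (−1.16 in HZ and −1.10 in LC boars) and with upper-quartile scaling (−1.02 and −1.04), which moved the median gene too. Without single libraries CBR4 in La vs Lb ran from −1.02 (without Lb2) to −0.58, in Ha vs La from −0.0719 to 0.0396, in Hb vs Lb from −0.30 to 0.11 (0.00607 with limma on FPKM + 1) and in the interaction from −0.33 to 0.10 (0.0589 and 0.0592 with the limma settings).

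CBR3 in Ha vs La lost its call with all 12 libraries in 1 fit (−1.27, adjusted p = 0.0521) and with replicate number as a block (−1.23, 0.0580), and ran from −1.51 to −0.997 without single libraries. The CBR3 interaction was called with DESeq2, both limma settings, upper-quartile scaling and without Lb1.

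LOC110256483 in Ha vs Hb ran from −0.45 (without Hb1) to 3.77, and in Ha vs La from −0.95 to 0.49 (0.0694 with limma on FPKM + 0.1, 0.0550 with the block). The cause of these changes was not tested.

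Genes called in Ha vs La were 507 with limma on FPKM + 1. In Hb vs Lb they were 1176 with DESeq2, 1258 with all 12 libraries, 154 with the block and 97 to 1029 without single libraries. For the interaction they were 1363 with DESeq2, 1365 with limma on FPKM + 0.1 and 437 to 1242 without single libraries.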
